A study of Mus musculus with 14 samples.

Results

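The chromatin around 10 genes of the bone morphogenetic protein (BMP) pathway was followed in mouse embryonic stem (ES) cells driven towards primitive endoderm (PrE), the source of yolk sac endoderm. The genes were the ligands Bmp2, Bmp4 and Bmp6, the target genes Id1, Id2, Id3 and Id4, the inhibitory SMAD gene Smad6, and the homeobox genes Msx1 and Msx2. Of 124598 accessible regions, merged from 14 ATAC-seq peak lists wherever peaks overlapped by at least 1 bp, 123 had one of these genes as the nearest protein-coding transcription start site (TSS) within 50 kb. In ATAC-seq a transposase inserts adapters into open DNA, and a peak marks a stretch where insertions accumulate.

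BMP ligands bind serine/threonine kinase receptors that phosphorylate SMAD1, SMAD5 and SMAD9, which enter the nucleus with SMAD4 and bind target genes. The Id genes are among the most direct targets, and their products bind E proteins and keep them off DNA. Smad6 is also a target and its product inhibits the pathway, while Msx1 and Msx2 encode homeodomain repressors that BMP signals activate in many embryonic tissues. In ES cells grown in serum and LIF, BMP activity in serum is known to act through Id proteins to hold back neural differentiation.

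The cells were the KH2 line, from strain C57BL/6 per the labels, and every library, including those at 0 h, carried the TRE:GATA6-DsRed2 transgene, which doxycycline (Dox) switches on. Cells at 0 h were in 2i medium with LIF and got no Dox. Cells at 2, 4 and 8 h were in serum medium with LIF and Dox at 1 µg/mL throughout, and cells at 16, 24 and 48 h had 12 h of Dox followed by serum medium without it. Each of the 7 time points had 2 libraries of 50000 cells, and the study describes its replicates as independent experiments, though the labels name no separate cultures. The change of medium coincided with induction, so serum and GATA6 cannot be told apart in any comparison with 0 h, and time and Dox removal cannot be told apart between 8 and 16 h.

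Calling a region in a library required that a peak of that library cover at least 1 bp of it. Regions are named by the distance in bp from the TSS to their midpoint, so that Id1 +3119 lies downstream of the start of Id1 and Id1 -7828 upstream of it. The lists gave no read counts, and the read numbers that the study lists were not used here, so no value is corrected for depth. A region without a peak may be open below the threshold of that library. The libraries held 55588 to 65073 peaks.

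The sequences below are the central 200 bp of the regions called in every library taken during Dox, in every library taken after Dox or in every induced library, and in each case nowhere else, together with one region upstream of each of Id1 and Id2. They were read on the + strand of GRCm38 from RefSeq. Capitals mark matches, on either strand, to GGCGCC and GTCTG (sequences bound by SMAD proteins), to the GATA hexamers (GATA with A or T before it and A or G after it), and to TGANTCA with C or G at N, the site of AP-1 factors. The first 5 regions, from Bmp6, Id3, Smad6 and Msx2, were called in each of the 6 libraries taken during Dox (2, 4 and 8 h) and nowhere else.
Bmp6 +16284, chr13:38361292-38361491, in an intron of Bmp6: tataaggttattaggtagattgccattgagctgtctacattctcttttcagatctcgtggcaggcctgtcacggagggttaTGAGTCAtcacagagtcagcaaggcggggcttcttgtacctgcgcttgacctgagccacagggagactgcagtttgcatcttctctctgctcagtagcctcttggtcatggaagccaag
Id3 -32764, chr4:136110634-136110833, intergenic: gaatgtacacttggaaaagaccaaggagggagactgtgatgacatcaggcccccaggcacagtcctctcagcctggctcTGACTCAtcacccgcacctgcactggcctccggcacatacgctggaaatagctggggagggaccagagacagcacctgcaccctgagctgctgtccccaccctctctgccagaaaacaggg
Id3 -26303, chr4:136117095-136117294, intergenic: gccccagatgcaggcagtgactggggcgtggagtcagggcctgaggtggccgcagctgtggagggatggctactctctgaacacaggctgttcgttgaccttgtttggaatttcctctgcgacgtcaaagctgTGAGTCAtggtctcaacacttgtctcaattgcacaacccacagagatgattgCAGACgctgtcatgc
Smad6 -28697, chr9:64050657-64050856, in an intron of 1110036E04Rik: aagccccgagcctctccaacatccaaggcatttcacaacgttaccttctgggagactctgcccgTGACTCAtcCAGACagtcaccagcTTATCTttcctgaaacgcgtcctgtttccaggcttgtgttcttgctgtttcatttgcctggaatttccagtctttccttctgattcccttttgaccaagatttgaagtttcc
Msx2 -38524, chr13:53511499-53511698, in an intron of Gm34022: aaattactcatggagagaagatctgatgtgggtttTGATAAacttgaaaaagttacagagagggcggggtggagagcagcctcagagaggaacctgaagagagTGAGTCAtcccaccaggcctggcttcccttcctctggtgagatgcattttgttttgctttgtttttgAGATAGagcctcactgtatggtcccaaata
The next 7 were called in each of the 6 libraries taken after Dox (16, 24 and 48 h) and nowhere else.
Bmp2 +18757, chr2:133570817-133571016, intergenic: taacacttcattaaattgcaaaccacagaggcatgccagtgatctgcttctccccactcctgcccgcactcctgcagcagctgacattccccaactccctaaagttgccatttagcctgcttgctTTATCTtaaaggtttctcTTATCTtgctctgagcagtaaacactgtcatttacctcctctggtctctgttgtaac
Bmp6 -33486, chr13:38311522-38311721, intergenic: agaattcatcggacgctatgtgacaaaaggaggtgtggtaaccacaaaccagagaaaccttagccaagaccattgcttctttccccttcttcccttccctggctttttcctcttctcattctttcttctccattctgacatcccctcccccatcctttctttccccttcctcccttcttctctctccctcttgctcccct
Bmp6 +7220, chr13:38352228-38352427, in an intron of Bmp6: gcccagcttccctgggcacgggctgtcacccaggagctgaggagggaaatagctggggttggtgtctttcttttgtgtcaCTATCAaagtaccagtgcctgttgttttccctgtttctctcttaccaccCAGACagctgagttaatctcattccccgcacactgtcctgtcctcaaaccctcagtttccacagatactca
Id1 +3119, chr2:152739271-152739470, intergenic: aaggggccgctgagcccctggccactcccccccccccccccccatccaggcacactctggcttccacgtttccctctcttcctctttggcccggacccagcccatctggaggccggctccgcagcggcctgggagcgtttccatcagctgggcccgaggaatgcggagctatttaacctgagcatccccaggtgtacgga
Id1 +3737, chr2:152739889-152740088, intergenic: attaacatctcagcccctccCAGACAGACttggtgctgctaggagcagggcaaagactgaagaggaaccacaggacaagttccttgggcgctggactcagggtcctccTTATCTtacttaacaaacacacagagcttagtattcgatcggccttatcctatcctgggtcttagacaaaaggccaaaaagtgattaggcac
Id3 -28378, chr4:136115020-136115219, intergenic: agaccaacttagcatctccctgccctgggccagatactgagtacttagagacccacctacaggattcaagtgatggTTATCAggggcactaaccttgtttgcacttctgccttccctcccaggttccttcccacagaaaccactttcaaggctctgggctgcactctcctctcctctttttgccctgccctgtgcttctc
Smad6 -38266, chr9:64060226-64060425, intergenic: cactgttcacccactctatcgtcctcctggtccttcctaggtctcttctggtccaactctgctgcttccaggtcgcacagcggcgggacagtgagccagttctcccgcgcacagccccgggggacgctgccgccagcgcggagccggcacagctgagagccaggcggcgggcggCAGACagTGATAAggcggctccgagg
The next 3 were called in all 12 induced libraries and neither 0 h library, and the last 2 are the Id2 region called in both libraries from 8 h on and the single Id1 region with both SMAD-type sequences.
Bmp6 -32514, chr13:38312494-38312693, intergenic: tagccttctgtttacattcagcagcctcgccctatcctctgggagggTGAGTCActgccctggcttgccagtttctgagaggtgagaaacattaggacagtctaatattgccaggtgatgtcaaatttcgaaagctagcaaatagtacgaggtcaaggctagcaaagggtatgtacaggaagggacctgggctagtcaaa
Bmp6 +8722, chr13:38353730-38353929, in an intron of Bmp6: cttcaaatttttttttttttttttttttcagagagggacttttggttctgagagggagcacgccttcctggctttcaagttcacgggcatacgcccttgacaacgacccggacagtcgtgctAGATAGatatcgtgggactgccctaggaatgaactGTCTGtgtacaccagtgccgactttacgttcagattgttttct
Msx2 +2105, chr13:53470870-53471069, in an intron of Msx2: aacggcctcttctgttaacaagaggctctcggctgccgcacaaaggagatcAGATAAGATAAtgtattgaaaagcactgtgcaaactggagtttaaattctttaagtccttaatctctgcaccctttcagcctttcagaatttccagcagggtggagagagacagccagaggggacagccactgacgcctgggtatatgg
Id2 -1769, chr12:25098810-25099009, intergenic: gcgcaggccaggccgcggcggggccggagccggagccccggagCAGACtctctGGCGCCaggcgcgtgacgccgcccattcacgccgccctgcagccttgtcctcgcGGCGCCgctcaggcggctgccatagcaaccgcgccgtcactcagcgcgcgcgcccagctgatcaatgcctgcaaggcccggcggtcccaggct
Id1 -1186, chr2:152734966-152735165, intergenic: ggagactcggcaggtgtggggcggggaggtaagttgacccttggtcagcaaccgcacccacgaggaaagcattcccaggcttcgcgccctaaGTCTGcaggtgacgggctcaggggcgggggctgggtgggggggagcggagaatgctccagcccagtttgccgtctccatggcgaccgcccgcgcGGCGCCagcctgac

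Bmp2 (chr2:133552159-133562885, + strand) encodes a secreted ligand and gained calls from 16 h on. It had 8 regions, of which both 0 h libraries called 2 and 3, both 8 h libraries called 2, both 16 h libraries called 4, and the 48 h libraries called 5 and 6. The groups at 0 and 48 h did not overlap, and 27.3% of genes with 7 to 18 regions had more calls at 48 h in this way. The region over its start, Bmp2 +570, was called in 13 of 14 libraries. The intergenic Bmp2 +18757, whose sequence holds 2 GATA hexamers, was called only in the 6 libraries from 16 h on, and its score rank in the list moved from the percentiles 4.58 and 11.7 at 16 h to 65.5 and 63.1 at 48 h. It rose with time among the 12 induced libraries (exact two-sided permutation test, adjusted p = 0.0272). Bmp2 +2559, over coding exon and UTR of Bmp2, rose when all 14 libraries were used (exact permutation test, adjusted p = 0.0474) but not among the 12 induced ones (exact permutation test, adjusted p = 0.0963).

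Bmp4 (chr14:46383520-46390669, - strand), the ligand of extraembryonic ectoderm and mesoderm, went the other way. Its 7 regions gave 6 and 5 calls at 0 h, 5 and 6 at 16 h, and 2 and 3 at 48 h, with no overlap between 0 and 48 h. Of genes with 7 to 18 regions, 28.6% had fewer calls in both 48 h than in both 0 h libraries. Bmp4 -1236 was called in both libraries at each time from 0 to 16 h, with percentiles of 90.9 and 89.9 at 0 h, then in neither 24 h library and in 1 of 2 at 48 h, at percentile 16.7. This trend did not pass (exact permutation test, adjusted p = 0.077 over 14 libraries). Bmp4 -28002 was called in 9 libraries, none of them after 16 h, and fell (exact permutation test, adjusted p = 0.0355 over 14 libraries, adjusted p = 0.0646 over the 12 induced ones). The region at the annotated start, Bmp4 +103, was called in only 2 of 14 libraries. Bmp4 +2975, inside the gene, and Bmp4 -22157 were called in all 14.

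Bmp6 (chr13:38345107-38500302, + strand), a ligand of the same family as BMP5 and BMP7, started from the fewest calls. Each 0 h library called 1 of its 9 regions, the one over its start, Bmp6 +184. The 2 h libraries called 5 and 4, the 16 h libraries 6 each, the 24 h libraries 8 each and the 48 h libraries 6 each. Every induced library thus called more than either 0 h library, and how many other genes did the same was not counted. Bmp6 -32514 and the intronic Bmp6 +8722 were called in all 12 induced libraries and neither 0 h library, and Bmp6 +8722 stood at percentiles 88.0 and 76.6 as early as 2 h. The adjacent Bmp6 -33486 and Bmp6 +7220 were called in the 6 libraries of 16 to 48 h only, and both rose (exact permutation test, adjusted p = 0.0272 each over 12 libraries). Bmp6 +16284 was called in the 6 libraries of 2, 4 and 8 h only and fell (exact permutation test, adjusted p = 0.0272 over 12 libraries).

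**Figure D1:**
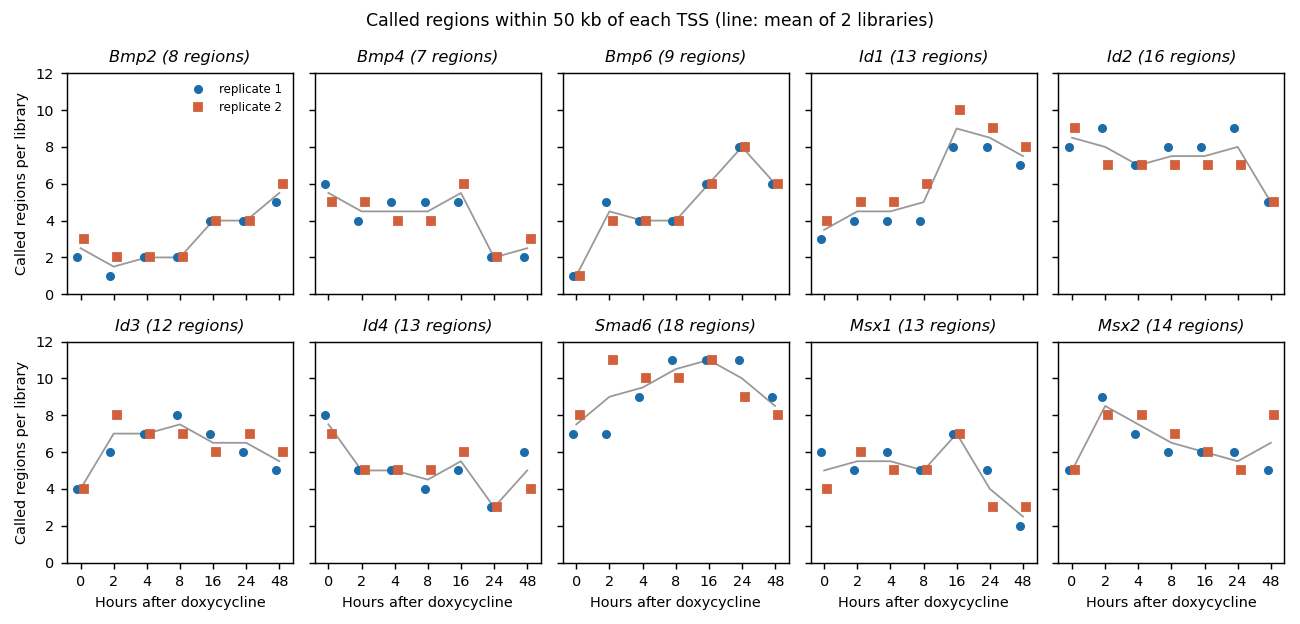
Number of called regions within 50 kb of the TSS (vertical axis) in each library by hours after Dox (horizontal axis, time points evenly spaced), 1 panel per gene, with 1 symbol per library and a line through the mean of the 2. Bmp6 goes from 1 called region in each 0 h library to 8 in each 24 h library, while Bmp4 ends at 2 and 3.

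Id1 (chr2:152736251-152737410, + strand), a common readout of BMP activity, gained most of its calls between 8 and 16 h. Its 13 regions gave 3 and 4 calls at 0 h, 4 and 6 at 8 h, 8 and 10 at 16 h, and 7 and 8 at 48 h. Neither 16 h nor 48 h overlapped 0 h. Of genes with 7 to 18 regions, 27.3% also had more calls in both 48 h than in both 0 h libraries, and for 16 h that share was not counted. Id1 +3119 and Id1 +3737, a pair of intergenic regions just beyond the end of the gene, were called in the 6 libraries of 16 to 48 h only. At 16 h Id1 +3119 ranked at percentiles 12.9 and 9.29, and at 48 h at 83.7 and 85.6. Id1 -7828 was called in the same 6 libraries and in 1 of 2 at 8 h. All 3 rose (exact permutation test, adjusted p = 0.0272 each over 12 libraries).

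The Id1 start region itself, Id1 +33, was called in all 14 libraries, so calls could not change there, but its rank in the lists did. Its percentiles were 31.9 and 21.3 at 0 h. They were 64.2 and 45.9 at 2 h and 57.9 and 61.4 at 8 h. At 24 h they reached 80.2 and 79.9, and at 48 h 84.1 and 81.0. Both libraries of each time from 2 h on lay above both of 0 h. Id1 -1186, which holds GGCGCC and GTCTG, was called in replicate 2 alone at each of 0, 2, 4 and 8 h and in both at 16, 24 and 48 h. Replicate 2 thus called the region throughout. Its list was the longer one at every time point, though at 8 h with 61403 peaks against 61393. The part that list length had in these calls was not tested. The trend over 12 libraries, which takes both replicates together, did not pass (exact permutation test, adjusted p = 0.254), and with this number of calls no order could. The change in replicate 1 alone could not be judged, since the smallest two-sided p of the exact permutation test with 6 libraries is 0.1. The BMP response element known from the Id1 upstream region combines these same kinds of sequence, but whether SMAD proteins bound here was not measured. Id1 -9257 was called in all 12 libraries up to 24 h, at percentiles of 98.0 and 95.3 at 0 h, and in neither at 48 h. That is the most extreme order possible for its number of calls, and even so it could not pass (exact permutation test, adjusted p = 0.0665 over the 12 induced libraries).

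Id2 (chr12:25093799-25097140, - strand) had 16 regions and ended with fewer calls, 5 in each 48 h library against 8 and 9 at 0 h. Its counts from 2 to 24 h were 7 to 9. Id2 -1769 was called in both libraries of 8, 16, 24 and 48 h and in none before, and Id2 -43166 in both of 24 and 48 h only. Both rose (exact permutation test, adjusted p = 0.0272 each over 12 libraries). Id2 -27536 was called in both libraries up to 16 h, in 1 at 24 h and in neither at 48 h, and fell over the 14 libraries (exact permutation test, adjusted p = 0.0474). Over the 12 induced ones it could not pass, as its calls stood in the most extreme order possible for their number (exact permutation test, adjusted p = 0.0646). Id2 -47750 and Id2 +13289 were called in all libraries up to 24 h and in neither at 48 h. The region inside the gene, Id2 +888, was called in all 14 libraries at percentiles of 81.7 to 94.2.

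Id3 (chr4:136143497-136145755, + strand) had 12 regions, with 4 calls in each 0 h library, 6 and 8 at 2 h, 8 and 7 at 8 h and 5 and 6 at 48 h. Upstream of the gene, regions of opposite timing lay between each other. Id3 -32764 and Id3 -26303 were called in the 6 libraries of 2, 4 and 8 h only and fell, while Id3 -28378, between them, was called in the 6 libraries of 16, 24 and 48 h only and rose (exact permutation test, adjusted p = 0.0272 each over 12 libraries). Id3 -28378 reached percentiles of 90.4 and 93.6 at 48 h. Id3 +3425, beyond the end of the gene, was called in all 14 libraries but moved from percentiles 97.7 and 97.3 at 0 h to 82.3 and 88.2 at 16 h and 47.3 and 30.4 at 48 h. The start region, Id3 +263, moved the other way, from 55.2 and 70.1 to 88.2 and 85.5.

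Id4 (chr13:48261228-48266026, + strand) lost calls first. Of its 13 regions, the 0 h libraries called 8 and 7, the 2 and 4 h libraries 5 each, the 24 h libraries 3 each and the 48 h libraries 6 and 4. The 48 h libraries lay below those of 0 h, as they did for 28.6% of genes with 7 to 18 regions. Id4 -34595 and Id4 +11867 were called in both 0 h libraries and in no other. Id4 -8476, in an intron of A330033J07Rik, was called in all 10 libraries up to 16 h and in none after, and fell in both tests (exact permutation test, adjusted p = 0.0272 over 12 libraries, adjusted p = 0.0137 over 14). Id4 -347, just before the start, was called in all 14. Of the Id4 regions 0 rose in either exact permutation test, and 1 had a higher share of late calls at an unadjusted p under 0.05.

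**Figure D2:**
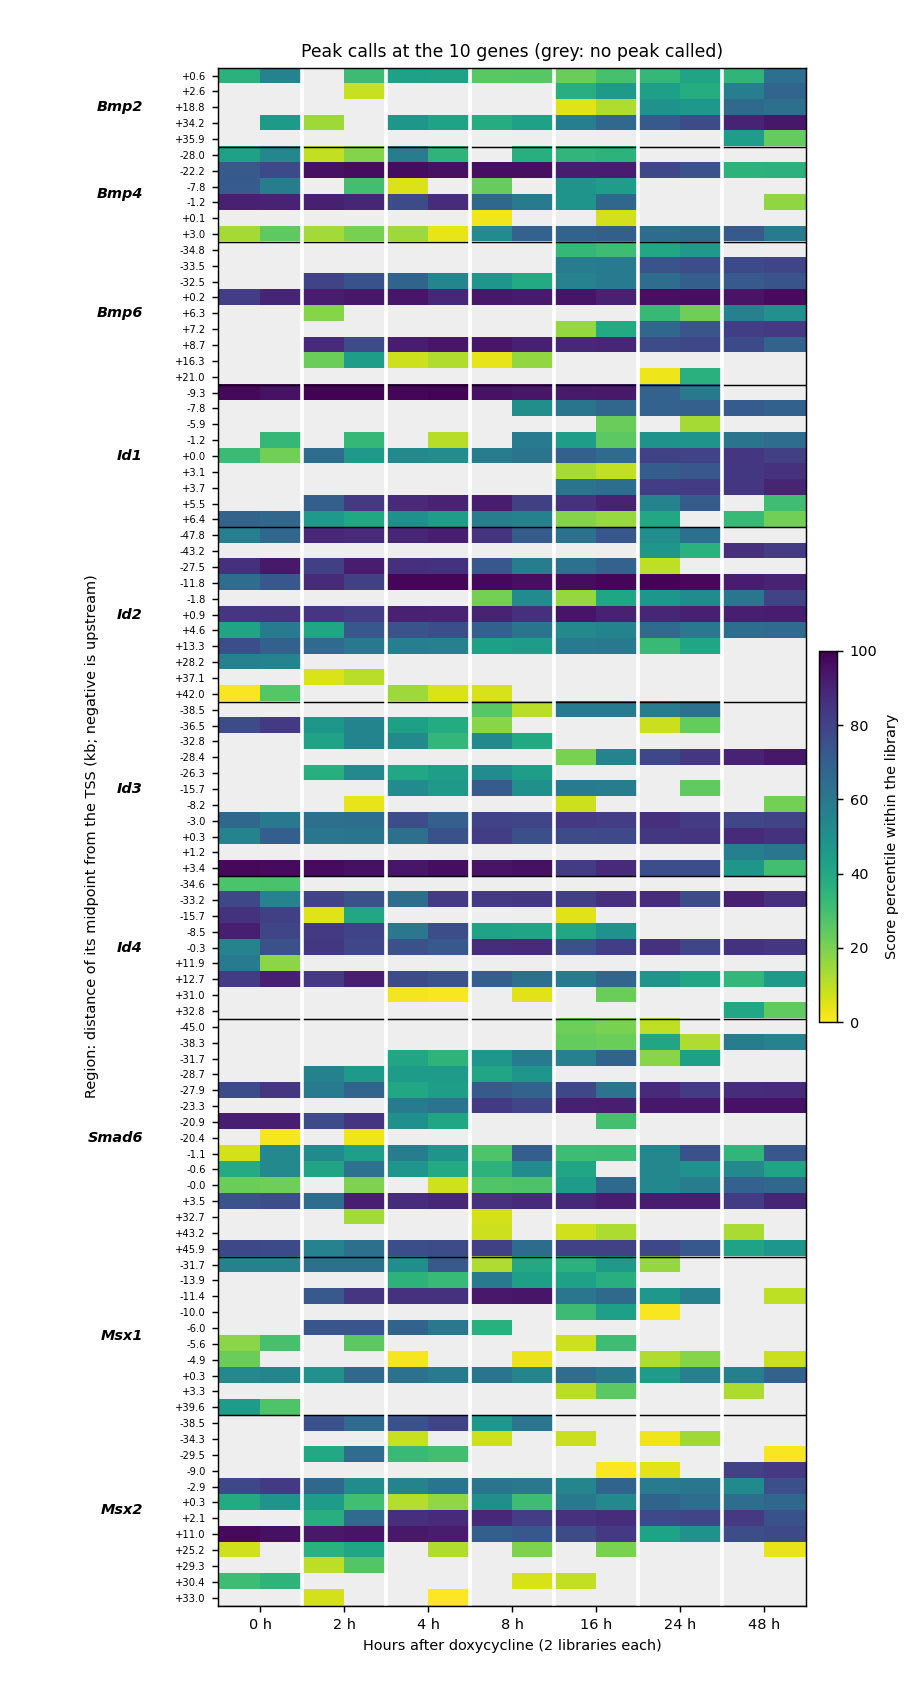
Score percentile within the library (colour scale, from 0 to 100) of the regions called in at least 2 libraries, by gene and by distance from the TSS in kb (rows), in the 14 libraries by hours after Dox (columns, 2 libraries each), with grey where no peak was called. Rows of Bmp6, Id1 and Id3 turn from grey to coloured at 16 h, and 5 rows of Bmp6, Id3, Smad6 and Msx2 are coloured at 2, 4 and 8 h only.

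Smad6 (chr9:63953076-64022059, - strand) had the most regions, 18, and its counts of 7 and 8 at 0 h, 11 and 11 at 16 h and 9 and 8 at 48 h overlapped between the ends of the course. Its regions that passed a trend test lay upstream of the gene. Inside the gene, among regions called in all 14 libraries, the mean percentile of Smad6 +45861 went from 78.0 at 0 h to 45.0 at 48 h. That of Smad6 +3467 went from 75.3 to 85.9. Smad6 -20947 was called in both libraries of 0, 2 and 4 h and in 1 of 8 later ones, and fell over 14 libraries (exact permutation test, adjusted p = 0.0221). Smad6 -23326, next to it, was called in all 10 libraries from 4 h on and rose over 14 libraries (exact permutation test, adjusted p = 0.0137), at percentiles of 59.0 and 61.9 at 4 h and 95.3 and 95.2 at 48 h. Over the 12 induced libraries neither passed (exact permutation test, adjusted p = 0.0646 and 0.0665). Smad6 -23326 could not pass there, since its calls already stood in the most extreme order possible for their number. Smad6 -28697 was called in the 6 libraries of 2, 4 and 8 h only and fell, and Smad6 -38266 in those of 16, 24 and 48 h only and rose (exact permutation test, adjusted p = 0.0272 each over 12 libraries). The start region, Smad6 -9, was called in 12 of 14 libraries.

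Msx1 (chr5:37820485-37824583, - strand) had 13 regions and gave 6 and 4 calls at 0 h, 7 and 7 at 16 h, and 2 and 3 at 48 h. Both 16 h libraries were above both of 0 h, and both 48 h libraries below. The share of genes with such a change was not counted for 16 h, and for 48 h it was 28.6% of genes with 7 to 18 regions. Msx1 -6016 was called in both libraries of 2 and 4 h and in 1 at 8 h only, and fell (exact permutation test, adjusted p = 0.0272 over 12 libraries). Msx1 -31703 fell over 14 libraries (exact permutation test, adjusted p = 0.0474). Over 12 it could not pass, as its calls stood in the most extreme order possible for their number (exact permutation test, adjusted p = 0.0646). Msx1 -11402 was called in both libraries from 2 to 24 h and reached percentiles of 93.1 and 94.0 at 8 h, but only 1 library called it at 48 h, at 9.43. Msx1 +317, over the start, was called in all 14.

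Msx2 (chr13:53466884-53473074, - strand) had 14 regions, with 5 calls in each 0 h library, 9 and 8 at 2 h and 5 and 8 at 48 h, the last overlapping 0 h. The intronic Msx2 +2105, whose sequence carries a pair of overlapping GATA hexamers, was called in all 12 induced libraries and in neither 0 h library. It ranked at percentiles of 37.3 and 65.2 at 2 h and 86.5 and 88.1 at 4 h. Msx2 -38524 was called in the 6 libraries of 2, 4 and 8 h only and fell (exact permutation test, adjusted p = 0.0272 over 12 libraries). Msx2 -9024 rose over 14 libraries (exact permutation test, adjusted p = 0.0474), not over 12 (exact permutation test, adjusted p = 0.0665), and moved from percentiles under 5 in single libraries at 16 and 24 h to 80.9 and 83.3 at 48 h. The start region, Msx2 +346, was called in all 14 libraries and ranked lowest at 4 h, at 11.2 and 16.1.

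**Figure D3:**
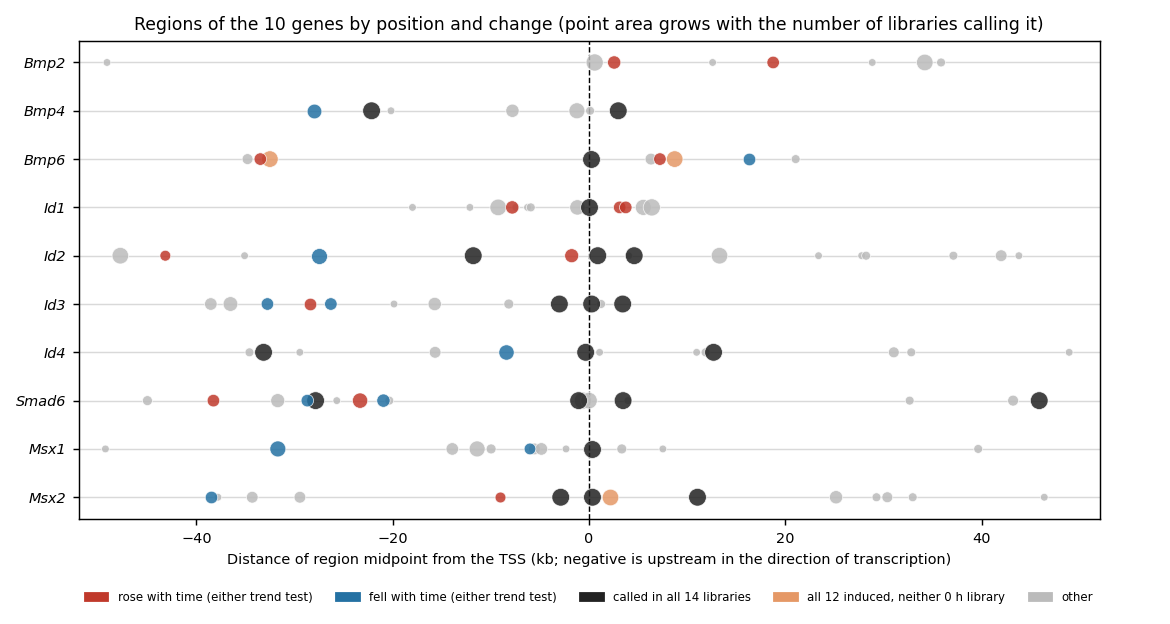
Regions of each gene by distance of their midpoint from the TSS (horizontal axis, kb, negative is upstream), 1 row per gene, with point area growing with the number of libraries that called the region. Black points (called in all 14 libraries) include the starts of 7 genes, while the red (rising) and blue (falling) points lie more than 1 kb from the TSS. The tested regions nearer to a TSS had too few or too many calls to pass.

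Counted over the 10 genes, the number of called regions per library was 50 in each 0 h library, between 55 and 61 from 2 to 8 h, 67 and 69 at 16 h, 62 and 57 at 24 h and 52 and 57 at 48 h, of 123. The 16 h libraries were above all others. Over the whole series the 16 h libraries called 48.6% ± 2.42 of all regions (SD, n = 2) and those of 8 h 45.7% ± 0.144 (SD, n = 2). Replicate 2 at 16 h called the most regions of any library, 62669, while replicate 1 called 58410, fewer than replicate 2 at 2 h and at 4 h. The part that list length had in the counts at the 10 genes was not tested. Among genes with 7 to 18 regions, as these had, 27.3% had more calls in both 48 h libraries than in both 0 h libraries and 28.6% had fewer. Of the 10 genes, 4 had more (Bmp2, Bmp6, Id1 and Id3) and 4 had fewer (Bmp4, Id2, Id4 and Msx1). No such share over other genes was counted for other pairs of time points.

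To ask what changed with the first 2 h of serum and Dox, calls at 2 h were compared with 0 h. A region counted as gained if both libraries of the later time and neither of the earlier called it, and as lost in the reverse case. Of 54 regions that could be compared, 14 were gained, where 20.5% of all regions were, and 6 were lost, against 14.8%. At 48 h against 0 h, 20 of 63 were gained (29.1% of all regions) and 18 were lost (33.3%). Within serum, at 48 h against 2 h, 15 of 59 were gained (26.8% of all regions) and 18 lost (33.9%). Across the interval in which Dox was removed, 16 h against 8 h, a comparison chosen after seeing the data, 13 of 61 were gained (13.8% of all regions) and 5 lost (8.53%). With lists of equal length, the 50000 highest peaks of each library, 6 were gained, and with 1 replicate left out 20 to 21 were. No test is given for these counts, since an exact two-sided p cannot go below 0.333 with 2 libraries in each group.

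The trend tests gave the counts a test per region. Over all 14 libraries, 13 of 76 regions rose and 5 fell, beside 11.5% and 11.7% of all regions tested. Over the 12 induced libraries, among which the medium did not change, 10 of 68 rose and 7 fell, beside 7.20% and 11.4%. The 10 that rose belonged to Bmp2, Bmp6, Id1, Id2, Id3 and Smad6, and the 7 that fell to Bmp6, Id3, Id4, Smad6, Msx1 and Msx2. By role, the 4 Id genes had 54 of the 123 regions, the 3 ligands 24, Smad6 18 and the Msx genes 27. The Id genes held 6 of those that rose and 3 of those that fell, the ligands 3 and 1, Smad6 1 and 1, and the Msx genes 0 and 2 (exact permutation test per region, 12 libraries). Of the 12 regions within 1 kb of a start, 7 were called in all 14 libraries and 4 entered the tests. These 4 were called in 2, 12 or 13 libraries. With so few or so many calls, even the most extreme order of calls gives an adjusted p above 0.05. That 0 of them passed over either set of libraries was therefore fixed in advance. At an unadjusted p under 0.05, which those called in 13 libraries cannot reach, 0 passed as well (exact permutation test).

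**Figure D4:**
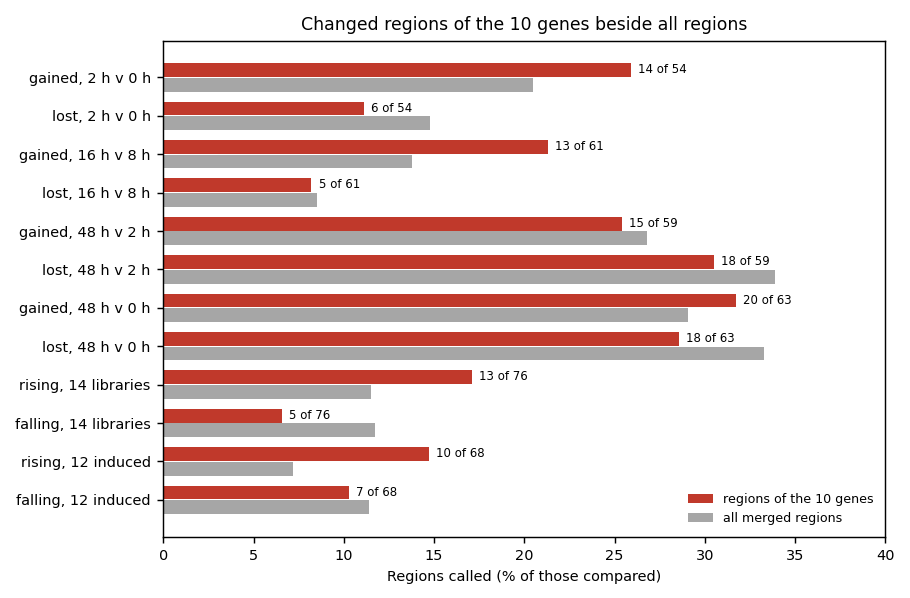
Percent of regions called as gained, lost, rising or falling (horizontal axis) in each comparison (rows), for the regions of the 10 genes (red, with counts) and for all merged regions (grey). The widest relative gap is for regions rising over the 12 induced libraries, 10 of 68 against 7.20%, while the counts at 48 h against 0 h lie close to those of all regions.

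Complete patterns were few. Of 76 regions, 7 were called in each library taken after Dox and nowhere else, a pattern of 1.85% of all regions, and 5 in each taken during Dox and nowhere else, a pattern of 1.15%. A further 3, from Bmp6 and Msx2, were called in all 12 induced libraries and neither 0 h library (1.74% of all regions). Of 97 regions called in at least 2 libraries, 21 were called in all 14 (18.4% of all regions). Among the 43 regions called in neither 0 h library and later in both libraries of a time point, the first such time was 2 h for 14 and 16 h for another 14, while 5 regions began at 4 h and 2 at 8 h, and 4 each at 24 and 48 h. The share at 16 h was 32.6%, and over all regions it was 17.3%. For 2 h the shares were 32.6% here and 28.0% over all regions. Every other time held a smaller share here: 11.6% beside 15.2% (4 h), 4.65% beside 12.4% (8 h), 9.30% beside 9.54% (24 h) and 9.30% beside 17.6% (48 h). First times were not counted with lists of equal length, which gave 6 gains in place of 13 for 16 h against 8 h.

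Of the 21 regions called in all 14 libraries, the score percentile was higher in both 48 h libraries than in both 0 h libraries at 14 (41.8% of all such regions) and lower at 6 (30.5%). The starts of Bmp6, Id1, Id2, Id3, Id4, Msx1 and Msx2 were among the 14. The 41.8% covers such regions at any distance from a TSS, and the share among start regions alone was not counted. Id1 +33 moved most of these 7, from 26.6 ± 7.52 at 0 h to 82.6 ± 2.21 at 48 h (mean percentile ± SD, n = 2 each). Among those lower at 48 h, Id3 +3425 moved from 97.5 ± 0.300 to 38.8 ± 11.9, Id4 +12683 from 86.7 ± 6.57 to 39.8 ± 8.63, and Bmp4 -22157 from 74.8 ± 3.83 to 35.5 ± 0.535. Bmp4 -22157 had first stood at 96.8 and 95.3 at 4 h. Bmp4 +2975 stood at 14.8 and 3.88 at 4 h and at 51.9 and 68.5 at 8 h. A percentile ranks a region within its own list, so it also moves when other regions do.

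**Figure D5:**
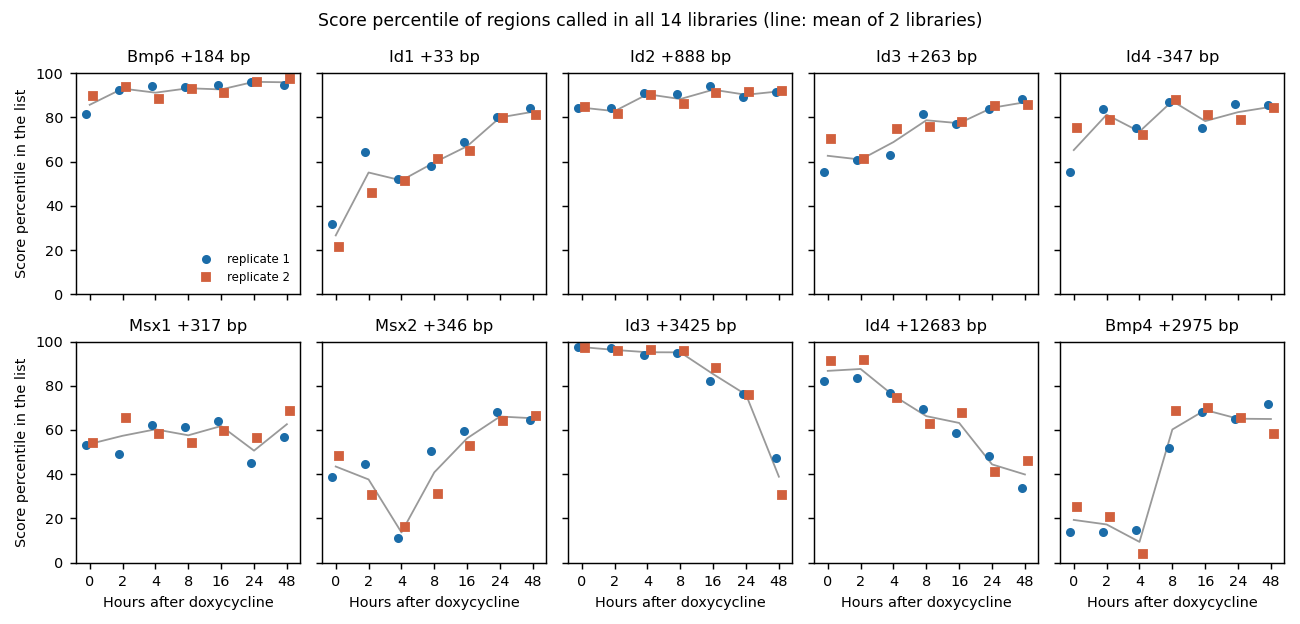
Score percentile within the list (vertical axis, 0 to 100) of 10 regions called in all 14 libraries, by hours after Dox (horizontal axis, time points evenly spaced), with 1 symbol per library and a line through the mean of the 2. The start of Id1 climbs from 31.9 and 21.3 to 84.1 and 81.0, while Id3 +3425 and Id4 +12683 end below 50.

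Matches were counted in the regions shown above and in all regions, with no test of a difference. All 5 regions called only at 2, 4 and 8 h held TGANTCA, against 9.21% of all regions and 59.1% of the 962 regions of the whole series with the same pattern of calls. This motif was added after the sequences had been seen. None of the 7 regions called only from 16 h on held it, against 2.65% of the 1548 such regions in the series. Of these 7, 5 held a GATA hexamer, where 58.8% of the 1548 did and 35.5% of all regions. Of the 123 regions, 12 held GGCGCC (4.46% of all regions), 48 held GTCTG (41.8%), 41 a GATA hexamer (35.5%) and 20 TGANTCA (9.21%). Both SMAD-type sequences stood in 6 regions, among them Id1 -1186 and Id2 -1769, the latter with GGCGCC at 2 places. Regions of the 10 genes had a median GC content of 54.5%, against 50.5% for all regions, and these matches are descriptions of sequence, not of binding.

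The other genes of the pathway, counted over the 12 induced libraries, included regions of both directions, and the shares over all regions tested were 7.20% rising and 11.4% falling. Over the 8 receptor genes, 4 of 34 tested regions rose and 1 fell, including 2 that rose at Bmpr2, the type II receptor, and 1 of each at Bmpr1a, a type I receptor. The other ligands, 11 genes, had 1 rising and 5 falling of 28, with 2 falling at each of Bmp8b and Bmp10. The SMAD genes had 3 rising and 4 falling of 35, and the 3 that rose were all at Smad7, the other inhibitory SMAD gene. Secreted and membrane inhibitors had 5 and 3 of 39, of which Twsg1, which binds BMPs outside the cell, had 2 rising. Intracellular regulators had 3 and 5 of 45, of which Nedd4l, a ubiquitin ligase, had 1 and 3. Other BMP-responsive genes had 8 and 6 of 74, of which Tbx3 had 2 and 3. At the 3 E-protein genes, the partners of Id proteins, 0 of 17 regions passed in either direction. Of these 17, 9 had an unadjusted p under 0.05, beside 34614 of 73315 of all regions tested (exact permutation test per region).

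Marker genes were counted in the same way. A peak within 1 kb of the TSS was called at 3 of 8 PrE markers in each 0 h library and at 6 to 7 at 48 h, and was already called at 6 in each 8 h library. Gata4, Sox17, Pdgfra and Foxa2 had such a peak in neither 0 h library and in both 48 h libraries, Col4a1 in both at 0 h and 1 at 48 h, and Dab2 in none of the 14. Over the 12 induced libraries 21 of 63 tested regions of the PrE markers rose and 1 fell, and 11 of 75 of the ES cell markers rose and 6 fell, beside 7.20% and 11.4% of all regions (exact permutation test per region). For 8 ES cell markers the number with a peak at the start was 4 to 5 at both 0 and 48 h. Nanog had such a peak in both 0 h libraries and neither 48 h library, and Pou5f1 the reverse. For 7 trophectoderm markers the number was 2 to 3 at 0 h and 4 at 48 h, and for 6 fibroblast markers 1 at 0 h and 0 at 48 h. The part that a change in cell state had in the calls at the BMP genes was not tested.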

How the data were processed

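Accessibility was measured by ATAC-seq in 14 libraries, 2 at each of 7 time points. The authors made the peak lists with the ENCODE ATAC-seq pipeline and, per the file names, kept peaks at an irreproducible discovery rate of 0.05 between pseudoreplicates of each library and removed blacklisted regions, so replicates were not pooled. Each list holds 4 columns, and the deposited value of a peak is treated as a score of unstated scale, used only as a percentile rank within its own list. Read counts were not used here, so the study's own test of counts could not be applied, and peak number can move with depth. The labels name the builds mm10 and GRCm38, and 0 of 839049 peaks ended past a GRCm38 chromosome.

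Regions, built by merging peaks that shared 1 bp or more, were assigned to the nearest TSS of 21951 protein-coding genes (GENCODE vM21) within 50 kb. The trend test of a region took the sum of the ranked times of its calling libraries and permuted the calls exactly (two-sided), over regions called in at least 2 but not all libraries, with Benjamini-Hochberg adjustment at 0.05 over all regions tested (83532 for 14 libraries, 73315 for the 12 induced ones). The test was tested on simulated data. A p-value is the share of all placements of a region's calls over these libraries whose sum is at least as extreme. It treats the libraries as exchangeable, including the 2 of a time point, and does not reach beyond them. The study describes its replicates as independent experiments, and the labels do not name separate cultures. Motifs were sought in the 200 bp around each midpoint in RefSeq GRCm38.p6. Python 3.11.15, numpy 2.4.6, pandas 2.3.3, scipy 1.17.1 and matplotlib 3.10.9 were used.

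The 10 genes, the gene lists and the comparisons were chosen with earlier results of these data known. For each gene the region nearest to its TSS and up to 4 regions that passed a trend test were to be named, and any other region named was chosen after its values were seen. A further PrE marker of the list is not reported here. In the other lists up to 3 genes with most regions passing were eligible to be named. Samples were grouped by the time in their titles. The correlation of deviations from the time point means between libraries of the same number was -0.0152 to 0.0124 over 21 pairs of time points. In list length the replicate number did matter: replicate 2 held more peaks than replicate 1 at every time point. The libraries of a time point shared 73.1% to 88.3% of the regions of the 10 genes that either called, and 73.6% to 75.8% of all regions.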

Additional observations from a re-analysis of the deposited data

Results flagged for a closer look

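Msx1 moved in opposite directions at 2 times against the same 0 h libraries. The mean number of called regions at 16 h was 2 higher than at 0 h, with both libraries above both, and at 48 h the difference was -2.5, with both libraries below both. The difference between these changes was not tested, and both use the same 0 h libraries. Among genes with 7 to 18 regions, 28.6% also had fewer calls in both 48 h than in both 0 h libraries. No such share was counted for 16 h, where the libraries called 48.6% of all regions on average, against 44.6% at 0 h.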

How the results depend on the processing

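Counts are regions of the 10 genes. Gained and lost at 2 h against 0 h were 4 and 0 within 10 kb of the TSS in place of 14 and 6, and 25 and 14 when 1 of the 2 libraries sufficed for a call at a time point. At 48 h against 0 h the counts within 10 kb were 11 and 4, in place of 20 and 18, and 32 were gained with 1 library. At 48 h against 2 h they were 7 and 3 within 10 kb, in place of 15 and 18, and 24 and 29 with 1 library, and 23 were gained within 100 kb. At 16 h against 8 h they were 7 and 0 within 10 kb, in place of 13 and 5, and 21 and 11 with 1 library, 9 were lost within 100 kb, and 6 were gained with the 50000 highest peaks per library. Regions rising over 14 libraries numbered 7 within 10 kb and 21 within 100 kb, in place of 13. Those falling numbered 1 within 10 kb, 12 with the 50000 highest peaks, 8 with hours in place of ranked times and 3 with a replicate block, in place of 5. Over 12 libraries the counts within 10 kb were 5 rising and 2 falling. With the replicate block 14 of 18 calls over 14 libraries and 17 of 17 over 12 were kept. In all, 82 of 108 values that kept both replicates were within 1.5 times.

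With 1 replicate left out, the gained and lost counts were 20 to 21 and 10 to 15 at 2 h against 0 h, 27 to 29 and 22 to 25 at 48 h against 0 h, 21 to 24 and 25 to 27 at 48 h against 2 h, and 20 to 21 and 9 to 10 at 16 h against 8 h. The trend tests then gave 0 to 0 calls, because the smallest two-sided p is 0.0571 with 7 libraries and 0.1 with 6. At an unadjusted p under 0.05, 36 of 76 regions passed over 14 libraries and 32 of 68 over 12. Of all regions tested, 37067 of 83532 and 34614 of 73315 did.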
